A study of Brachypodium distachyon with 35 samples.

Results

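BdbZIP2, BdbZIP5 and BdbZIP11 are 3 of the 96 bZIP transcription factor genes of Brachypodium distachyon with transcripts assayed by real-time PCR (qPCR). They were selected on measured values of the same samples, for high expression relative to the assigned control under cold, H2O2, PEG, SA and 6-BA and for low expression relative to the assigned control under Mn and Pb. The files list them as bradi1g05480, bradi1g17210 and bradi1g30140. Total RNA came from whole seedlings or organs of the line Bd21-3, a grass used as a model for temperate cereals, and no transgene or mutant was involved.

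Of 35 samples, 34 were used here: 3 untreated controls named CK1, CK2 and CK3, 27 treated seedling samples and 4 organs, which were root, stem, leaf and early spikelet. Each condition had 1 sample and 1 Ct per gene, so only the 3 controls gave a spread between samples. Seedlings were held for 1 or 6 h at 4 °C (cold) or 45 °C (heat), or with 10 mM H2O2, 20% polyethylene glycol (PEG), 200 mM NaCl, 1 mM salicylic acid (SA), 20 µM of the cytokinin 6-benzylaminopurine (6-BA), 100 µM abscisic acid (ABA) or 100 µM methyl jasmonate (MeJA). The heavy metals were given for 6 or 24 h as 0.05 mM CuSO4, 0.5 mM ZnSO4, 1 mM MnCl2, 0.07 mM CdCl2 or 0.75 mM PbCl2. The labels assign CK1 to the environmental factors other than NaCl at 6 h, to SA, to 6-BA and to the organs, CK2 to MeJA and ABA, and CK3 to NaCl at 6 h and all metals. Ages in the labels were 20 days for seedlings and 40 days for spikelets, and the methods of the study give younger plants. PEG at 1 h was left out because its Ct column was the same as that of H2O2 at 6 h in all 97 rows.

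Plant bZIP proteins bind DNA as dimers through a basic region and a leucine zipper, and many bind sites with an ACGT core. BdbZIP2 is listed as a homologue of rice RISBZ1, an activator of seed storage protein genes of the Opaque2 type. BdbZIP5 is listed with Arabidopsis TGA2 and TGA6, which bind the as-1 element and act with the coactivator NPR1 in the SA response. BdbZIP11 is listed with Arabidopsis bZIP19 and bZIP23, which switch on zinc uptake genes when zinc is scarce.

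A pair of scales are used below. The level is the Ct of the reference gene BdGAPD minus the Ct of the gene, on the log2 scale, and the change is the level in a sample minus the level in its assigned control. A change of 1 is therefore 2-fold. Both genes and controls carry error: 8 pairs of other genes with the same listed primers put the well error of 1 change at an SD of 0.97 over 27 treated samples, or at 0.78 without the pair BdbZIP50 and BdbZIP51. That SD leaves out the error of BdGAPD and the variation between plants. The Ct of the 3 genes lay between 18.41 and 27.58, and that of BdGAPD between 14.73 and 23.24.

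The untreated controls differed widely, and this bears on every change that follows. BdbZIP2 had a level of -5.99 for CK1, -5.17 for CK2 and -3.21 for CK3 (mean -4.79 ± 1.43, SD, n = 3). For BdbZIP5 the levels were -6.0, -5.18 and -2.60 (mean -4.59 ± 1.77, SD, n = 3). For BdbZIP11 they were -6.77, -6.32 and -2.81 (mean -5.30 ± 2.17, SD, n = 3). CK3 was thus the highest control for each gene, by 2.78, 3.40 and 3.96 above CK1. The whole family was shifted the same way, with 76 of the 96 genes higher in CK3 than in CK1 and a median difference of 2.59. BdGAPD had a Ct of 17.90, 15.72 and 20.08 in the controls in this order. The Ct of the genes in CK1 and CK3 was 23.89 and 23.29 for BdbZIP2, 23.90 and 22.68 for BdbZIP5, and 24.67 and 22.89 for BdbZIP11. The higher levels in CK3 thus hold both a later Ct of BdGAPD and an earlier Ct of each gene. Why the Ct of BdGAPD differed was not tested.

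**Figure D1:**
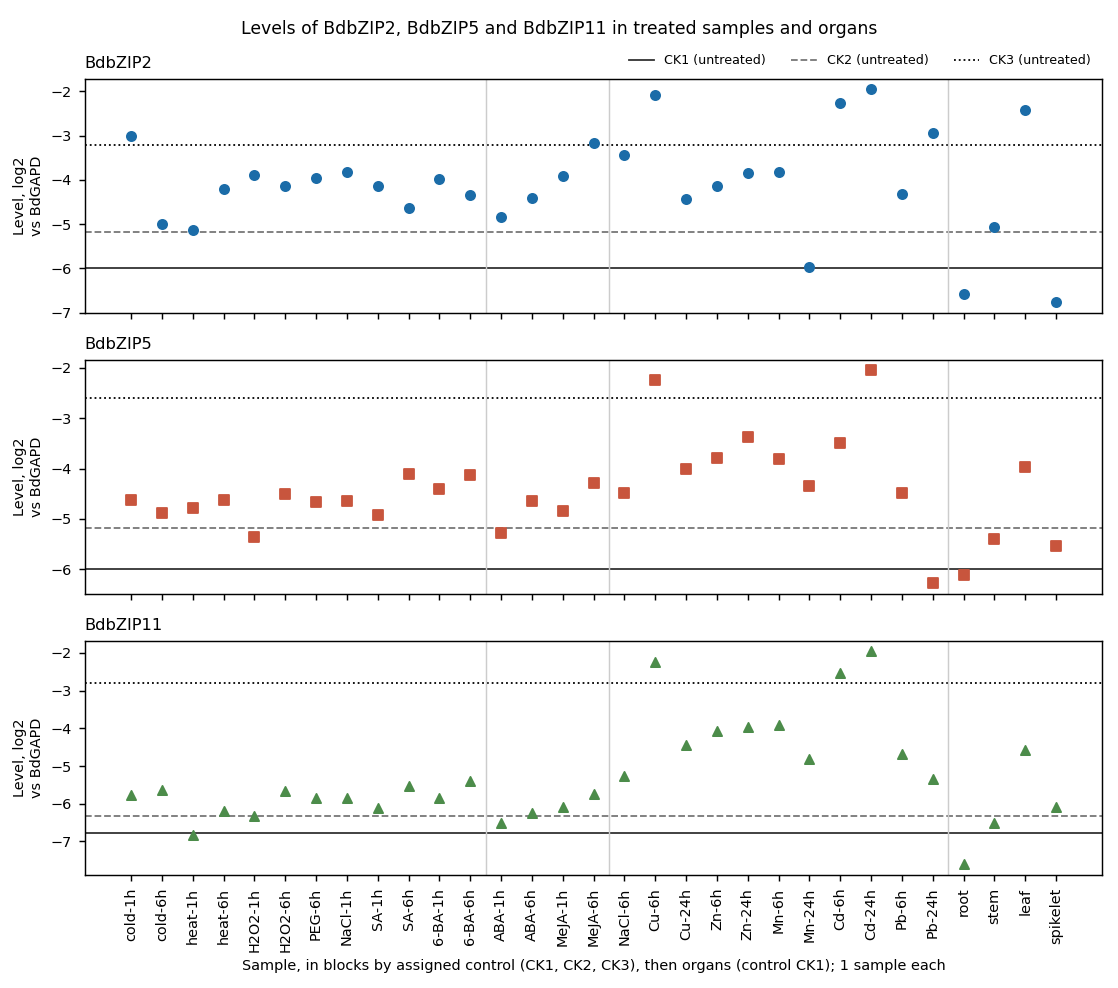
Level of each gene relative to BdGAPD (y axis, log2) in every treated sample and organ (x axis, 1 sample each), with horizontal lines for the untreated controls CK1, CK2 and CK3. Most points lie between the lines, and the CK3 line stands 2.78 to 3.96 above the CK1 line.

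Relative to BdGAPD, most treated levels lay within the range of the 3 controls. BdbZIP2 lay within the range of the controls in 21 of 27 treated samples and above it in 6, which were cold at 1 h, Cu at 6 h, Cd at both times, Pb at 24 h and MeJA at 6 h. BdbZIP5 lay within it in 24, above it in Cu at 6 h and Cd at 24 h, and below it in Pb at 24 h. BdbZIP11 lay within it in 23, above it in Cu at 6 h and Cd at both times, and below it in heat at 1 h. Together 11 of 81 values were above all controls and 2 were below, where the shares over all 96 genes were 14.7% above and 22% below. Relative to the median of the 96 genes in each sample, 47 of the 81 values were above all controls and 6 were below. The shares over all genes were 28.4% and 19.6%. In the 9 samples on which the genes were chosen for high values, BdbZIP2, BdbZIP5 and BdbZIP11 were above all controls in 9, 8 and 7. The choice of genes is thus part of the count of 47.

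Under cold, H2O2, PEG, SA and 6-BA, the treatments that served to choose the genes, all 27 changes against CK1 were above 0, from 0.44 to 2.99, with a median of 1.36. The median change over all 96 genes in these 9 samples was -0.01. These values are a description without a test, because the choice of genes used them. All 9 samples share the single CK1 well of each gene, so an error in that well would move them together. Against the mean of the 3 controls the median change was -0.067.

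The largest of these 27 changes was that of BdbZIP2 in cold. There its level was -3.00 at 1 h and -5.01 at 6 h, which gave changes of 2.99 and 0.98, or 7.94-fold and 1.97-fold, and at 1 h only 2 of the 96 genes had a higher change. With H2O2 its change was 2.10 at 1 h and 1.86 at 6 h, and with PEG it was 2.02 at 6 h. The change in cold was thus smaller at the later time, by more than the well error SD, while that to H2O2 was of like size at both. Each time had 1 well, so neither order has a replicate check. With SA the change was 1.85 at 1 h and 1.36 at 6 h. With 6-BA it was 2.01 and 1.65. In each of these 9 samples its change was 1.00 or more above the median of the family.

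BdbZIP5 had a narrower range of changes, from 0.65 to 1.89. Its change was 1.38 and 1.11 in cold at 1 and 6 h, 0.65 and 1.49 with H2O2, and 1.34 with PEG at 6 h. With SA, the hormone to which TGA factors are tied in Arabidopsis, it was 1.08 at 1 h and 1.89 at 6 h. With 6-BA it was 1.59 and 1.87. The value at 6 h was the higher one for H2O2, SA and 6-BA, and the lower one for cold. These differences, from -0.27 in cold to 0.84 with H2O2, were all smaller in size than the well error SD of 0.97.

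BdbZIP11 had the lowest median of the 3 genes in these samples, at 0.99. Its change was 0.99 and 1.14 in cold, 0.44 and 1.11 with H2O2, and 0.92 with PEG at 6 h. It was 0.65 and 1.25 with SA, and 0.92 and 1.37 with 6-BA. Where both times were used the 6 h value was above the 1 h value. Of its 9 changes 4 passed 2-fold, against 8 of 9 for BdbZIP2 and for BdbZIP5. In the same 9 samples, the family count past this mark ran from 16 of 96 (H2O2 at 6 h) to 30 of 96 (6-BA at 1 h). The choice of the 3 genes used these values, so their counts are a description.

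Counting a gene only when it was at least 2-fold higher at every time used, BdbZIP5 passed in cold, where 14.6% of the 96 genes did. BdbZIP2 passed with H2O2 (9.38% of genes). Both passed with PEG (17.7%), SA (13.5%) and 6-BA (16.7%). BdbZIP11 passed in none of the 5, so in no treatment were all 3 genes counted. At 6 h alone, all 3 were at least 2-fold higher with H2O2 (16.7% of genes), SA (17.7%) and 6-BA (24%). Since the choice of genes used these contrasts, nothing is read from the shares.

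**Figure D2:**
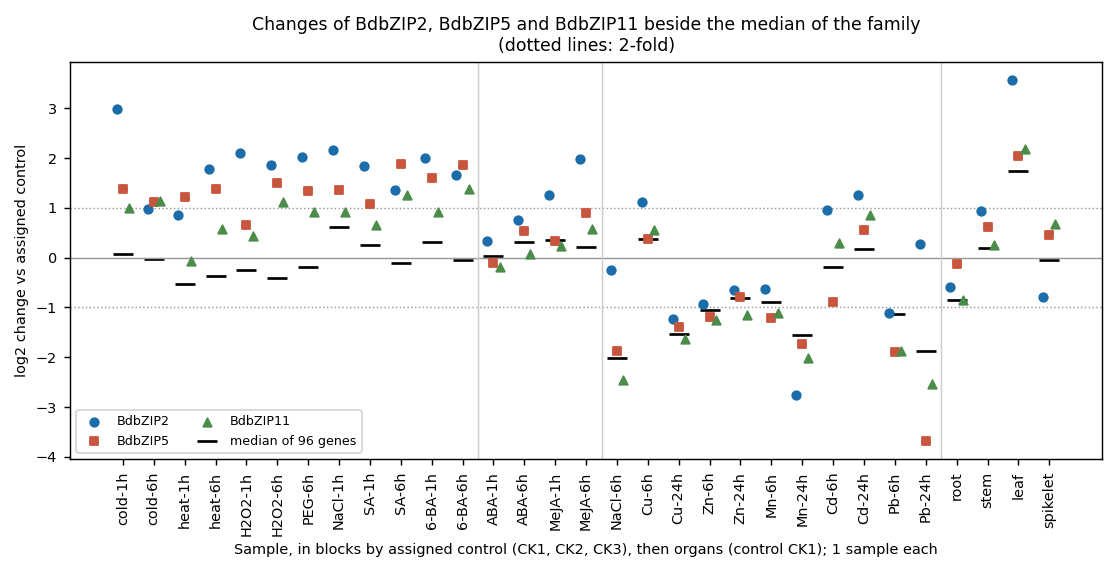
Change of each gene against its assigned control (y axis, log2) in every treated sample and organ (x axis, 1 sample each), with the median change of the 96 genes as a black bar and dotted lines at 2-fold. The coloured points stand above the bar in all samples assigned CK1 except BdbZIP2 in spikelet, and mostly near the bar in those assigned CK3.

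Under Mn and Pb, the other treatments that served to choose the genes, the changes against CK3 had a median of -1.81, where the median of all 96 genes was -1.31. The change of BdbZIP2 was -0.62 at 6 h and -2.75 at 24 h with Mn, and -1.12 and 0.27 with Pb. It was therefore low under Mn at 24 h but not under Pb at 24 h, and its 4 values did not share a sign. BdbZIP5 had changes of -1.21 and -1.74 with Mn and -1.89 and -3.68 with Pb, the last being its lowest value in any sample. BdbZIP11 had changes of -1.11 and -2.01 with Mn and -1.88 and -2.54 with Pb. BdbZIP5 and BdbZIP11 were at least 2-fold lower at both times under both metals, as were 40.6% of all genes under Mn and 44.8% under Pb.

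The sign of the median of these changes differed with the control used. Against the mean of the 3 controls, the median change under Mn and Pb was 0.47. Over the 11 samples assigned CK3, the level of BdbZIP2 was above CK1 in 11, by 0.03 to 4.03, and below CK3 in 7. For BdbZIP5 it was above CK1 in 10 and below CK3 in 9, and for BdbZIP11 above CK1 in 11 and below CK3 in 8. The exception for BdbZIP5 was Pb at 24 h, which was -0.28 against CK1 and below all 3 controls. The family was shifted likewise, with 76 of the 96 genes higher in CK3 than in CK1. In the 11 samples the family median change against CK3 ran from -2.02 to 0.375, with a median of -1.05. These counts are thus not particular to the 3 genes. Relative to the median of the 96 genes, the median change under Mn and Pb was -0.15.

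A level relative to the median of the 96 genes in the same sample does not use BdGAPD. On this scale the controls lay closer together. BdbZIP2 was at 3.33 for CK1, 4.56 for CK2 and 3.13 for CK3, BdbZIP5 at 3.32, 4.55 and 3.74, and BdbZIP11 at 2.55, 3.41 and 3.53. In the 9 samples of cold, H2O2, PEG, SA and 6-BA, BdbZIP2 ran from 4.60 to 6.83 and was above all 3 controls in 9. BdbZIP5 ran from 4.44 to 5.68 and was above them in 8. BdbZIP11 ran from 3.14 to 4.41 and was above them in 7. Over all genes, 35% of values in these samples were above the 3 controls of their gene. The genes were chosen on these samples, so the comparison is a description.

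On the same scale the lows under Mn and Pb were few. BdbZIP2 was below all controls only in Mn at 24 h, at 1.83, and was above them in Pb at 24 h, at 5.86. BdbZIP5 was below them only in Pb at 24 h, at 2.52. BdbZIP11 lay within the controls in all 4 samples, from 2.97 to 3.51. Over all genes, 22.1% of values under Mn and Pb were below the 3 controls. With ABA and MeJA, which the choice of genes did not use, BdbZIP2 was above all controls in 4 of 4 samples, BdbZIP5 in 3 and BdbZIP11 in 1, where the share over all genes was 31.2%.

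**Figure D3:**
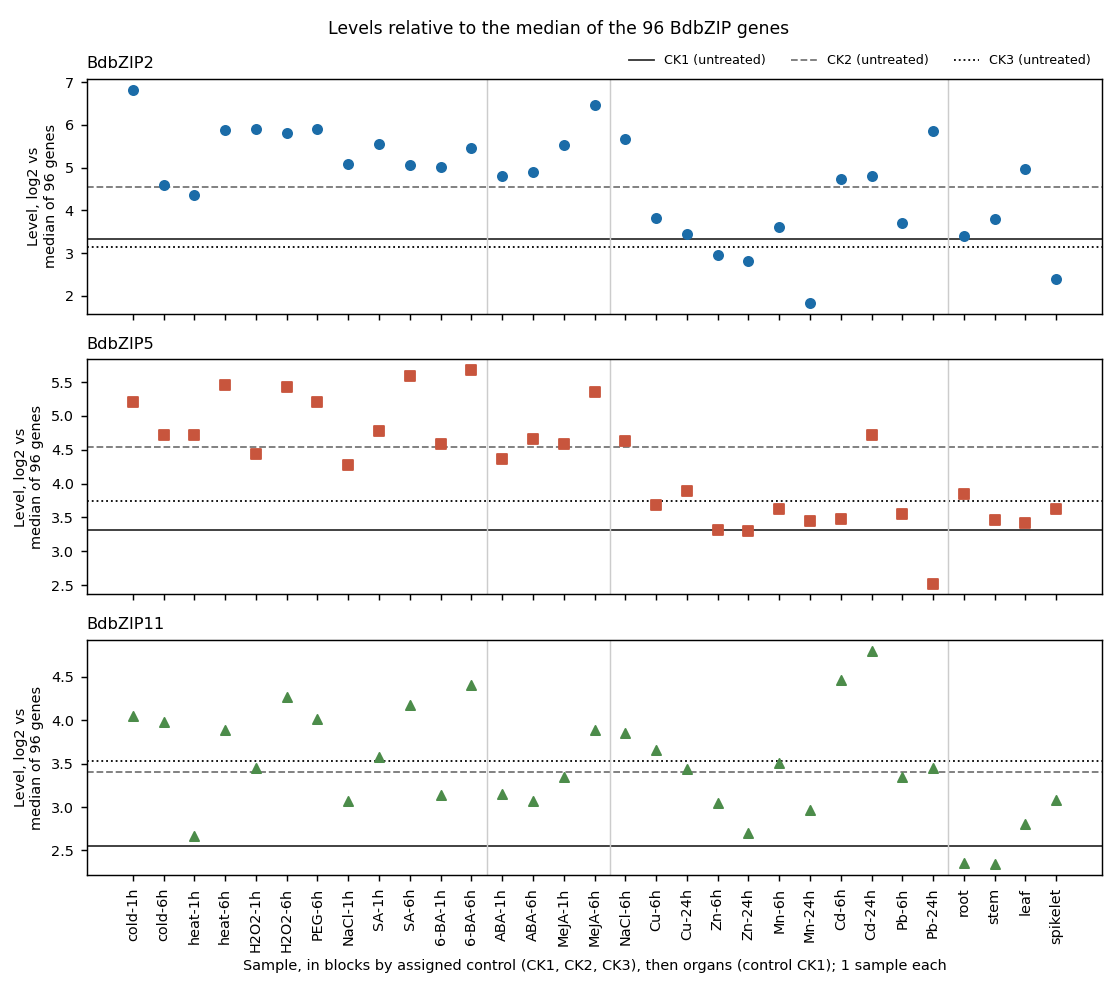
Level of each gene relative to the median of the 96 BdbZIP genes of the same sample (y axis, log2) in every treated sample and organ (x axis, 1 sample each), with lines for CK1, CK2 and CK3. In the samples of cold, H2O2, PEG, SA and 6-BA the points of BdbZIP2 (4.60 to 6.83) lie above all 3 lines.

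Heat and NaCl were not used to choose the genes, although their controls are shared with treatments that were. In heat, the level of BdbZIP2 was -5.14 at 1 h and -4.20 at 6 h, that of BdbZIP5 was -4.79 and -4.62, and that of BdbZIP11 was -6.83 and -6.19. The changes were 0.85 and 1.79 for BdbZIP2, 1.21 and 1.38 for BdbZIP5, and -0.06 and 0.58 for BdbZIP11. BdbZIP5 was at least 2-fold higher at both times, as were 13.5% of genes, and the median of the family was -0.52 at 1 h and -0.37 at 6 h. With NaCl at 1 h the changes were 2.16, 1.35 and 0.92 in the same order. BdbZIP2 and BdbZIP5 passed 2-fold there, as did 34.4% of genes.

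With NaCl at 6 h, where the assigned control turns from CK1 to CK3, the changes were -0.24 for BdbZIP2, -1.88 for BdbZIP5 and -2.45 for BdbZIP11. BdbZIP5 and BdbZIP11 were at least 2-fold lower, as were 71.9% of genes. The levels themselves were not lower at the later time: they were -3.83 at 1 h and -3.45 at 6 h for BdbZIP2, -4.65 and -4.48 for BdbZIP5, and -5.85 and -5.26 for BdbZIP11. Against CK1, which was the control at 1 h, the changes at 6 h were 2.54, 1.52 and 1.51, and the median under heat and NaCl became 1.36 in place of 0.89. The lower changes at 6 h thus came with CK3 as the control, whose levels were 2.78, 3.40 and 3.96 above those of CK1.

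Cu, Zn and Cd were not used to choose the genes either, and their control CK3 is that of Mn and Pb. With Cu the levels relative to BdGAPD were lower at 24 h than at 6 h. They went from -2.09 to -4.44 for BdbZIP2, from -2.23 to -4.00 for BdbZIP5 and from -2.25 to -4.45 for BdbZIP11. The Ct of BdGAPD was 20.86 at 6 h and 18.32 at 24 h. That of the genes was 22.95 and 22.76, 23.09 and 22.32, and 23.11 and 22.77, so none was later at 24 h. The changes were 1.12, 0.37 and 0.56 at 6 h and -1.23, -1.40 and -1.64 at 24 h. All 3 genes were at least 2-fold lower at 24 h, as were 72.9% of genes, and each lay within 0.30 of the family median of -1.53. The 3 genes thus stood close to the middle of the family in the later copper sample.

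With Zn, BdbZIP11, the homologue of the zinc deficiency regulators, had a level of -4.06 at 6 h and -3.97 at 24 h. Its changes were -1.25 and -1.16, and it was at least 2-fold lower at both times, as were 38.5% of genes. These values lay 0.20 and 0.36 below the family median. BdbZIP2 had changes of -0.93 and -0.64, and BdbZIP5 of -1.19 and -0.78. Relative to the family median, BdbZIP11 was at 3.045 and 2.705, within its controls of 2.55 to 3.53. On that scale BdbZIP2, at 2.965 and 2.825, and BdbZIP5, at 3.315 and 3.295, were below all 3 of their controls. Over all genes and treated samples, 19.6% of values were below.

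Relative to BdGAPD, Cd at 24 h gave the highest levels of all 3 genes among the treated samples, with -1.96 for BdbZIP2, -2.05 for BdbZIP5 and -1.96 for BdbZIP11. The changes were 0.95 at 6 h and 1.25 at 24 h for BdbZIP2, -0.90 and 0.55 for BdbZIP5, and 0.29 and 0.85 for BdbZIP11. BdbZIP2 passed 2-fold at 24 h, as did 29.2% of genes. The Ct of BdGAPD was 23.24 and 22.04 in the Cd samples, against a median of 18.13 over the treated samples, so the reference was late there. Relative to the family median, Cd at 24 h was the highest treated sample for BdbZIP11 alone, at 4.80, while BdbZIP2 was at 4.80 beside 6.83 in cold at 1 h and BdbZIP5 at 4.71 beside 5.68 with 6-BA at 6 h.

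With ABA, a hormone of drought and seed dormancy, no change of the 3 genes passed 2-fold at both times, and 5.21% of genes did. The changes were 0.33 and 0.76 for BdbZIP2, -0.10 and 0.53 for BdbZIP5, and -0.18 and 0.07 for BdbZIP11. With MeJA, the change of BdbZIP2 was 1.26 at 1 h and 1.99 at 6 h, past 2-fold at both times like 8.33% of genes. BdbZIP5 had changes of 0.33 and 0.90 and BdbZIP11 of 0.23 and 0.57. BdbZIP2 thus stood highest of the 3 in each of the 4 samples assigned CK2.

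Whether levels differed between the later and the earlier time was tested with no control subtracted, over the 7 treatments not used to choose the genes. The times were 1 and 6 h for heat, NaCl, ABA and MeJA, and 6 and 24 h for Cu, Zn and Cd. The untreated controls carry no time, so the differences are not corrected for any change in untreated seedlings. The mean difference, later minus earlier, was 0.10 ± 1.11 (SD, n = 7 treatments) for BdbZIP2, with a two-sided exact permutation p of 0.891. It was 0.23 ± 0.98 (SD, n = 7) for BdbZIP5, with an exact p of 0.516, and 0.04 ± 1.01 (SD, n = 7) for BdbZIP11, with an exact p of 0.969. After Benjamini-Hochberg adjustment over the 96 genes the permutation p was 0.994, 0.921 and 1. Relative to BdGAPD, each gene was higher at the later time in 6 of 7 treatments, and Cu, with differences of -2.35, -1.77 and -2.20, was the exception for all of them. The median difference over the 96 genes was 0.17 for heat, 0.245 for Zn, 0.345 for Cd and 0.275 for ABA. It was -0.365 for NaCl, -1.835 for Cu and -0.05 for MeJA. The 3 genes share the BdGAPD Ct of each sample, so their counts are not independent. No gene of the 96 passed after adjustment, 4 had an unadjusted exact p below 0.05, and the smallest p that 7 pairs allow is 0.0156. The counts of 6 depend on the reference. With the family median as reference they were 5, 6 and 4 of 7, and with Ct alone 4, 3 and 4. For BdbZIP5 the exact permutation p with the family median was 0.031, or 0.618 after adjustment.

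In organs, all 3 genes had their highest level relative to BdGAPD in leaf, where BdGAPD itself had its latest Ct of the 4 organs, 19.11. BdbZIP2 had a level of -6.57 for root, -5.06 for stem, -2.42 for leaf and -6.77 for spikelet. For BdbZIP5 the levels were -6.12, -5.39, -3.96 and -5.54, and for BdbZIP11 they were -7.61, -6.51, -4.58 and -6.09. Root and spikelet of BdbZIP2 differed by 0.20, less than the well error SD. With 1 sample an organ, the order has no replicate check. Relative to the family median, BdbZIP2 was still highest in leaf, at 4.96, but BdbZIP5 was lowest there, at 3.42 beside 3.84 in root, and BdbZIP11 was at 2.80 in leaf and 3.08 in spikelet. Against CK1 the changes in leaf were 3.57 for BdbZIP2, 2.04 for BdbZIP5 and 2.19 for BdbZIP11. All 3 were at least 2-fold higher there, as were 71.9% of genes, and the family median in leaf was 1.74. In spikelet, BdbZIP2 had a change of -0.78, against 0.46 for BdbZIP5 and 0.68 for BdbZIP11.

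The organ values above are from the Ct rows. In the deposited normalized table the 4 organ values of BdbZIP2 matched the Ct row of BdbZIP77, those of BdbZIP5 that of BdbZIP17 and those of BdbZIP11 that of BdbZIP23, within 0.05 on the log2 scale. Only 1 of 44 comparable genes matched its own row. Genes with the same primers differed in organs by a median of 0.44 in the Ct rows and of 1.89 in the normalized rows.

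The levels of the 3 genes were correlated. Over the 34 samples the Pearson r of levels was 0.64 between BdbZIP2 and BdbZIP5, 0.68 between BdbZIP2 and BdbZIP11 and 0.88 between BdbZIP5 and BdbZIP11, where the median over all pairs of genes was 0.32. All levels of a sample share its BdGAPD Ct. The r of the level with that Ct was 0.53 for BdbZIP2, 0.54 for BdbZIP5 and 0.72 for BdbZIP11, beside a median of 0.53 over the 96 genes. After the family median of each sample was removed, r between the genes was 0.66, 0.53 and 0.57 in the order of the pairs above, with a median of 0.11 over all pairs. Selection for a shared pattern is part of these values. The widest split was in Pb at 24 h, where the change of BdbZIP2 was 3.95 above that of BdbZIP5 and 2.81 above that of BdbZIP11. In Mn at 24 h BdbZIP2 was the lowest of the 3, by 1.01 and 0.74.

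By the same centred measure, other genes were more like each of the 3 than they were like one another. The genes most like BdbZIP2 were BdbZIP69 (r = 0.77), BdbZIP46 (0.76) and BdbZIP86 (0.76), over 34 samples. Those most like BdbZIP5 were BdbZIP30 (r = 0.91), BdbZIP70 (0.89) and BdbZIP26 (0.81). Those most like BdbZIP11 were BdbZIP24 (r = 0.78), BdbZIP77 (0.76) and BdbZIP15 (0.73). These are descriptions over levels centred on the same family median, and no test was made.

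BdbZIP5 was placed among the 14 genes listed as homologues of TGA factors. In this list BdbZIP48 and BdbZIP49 have the same listed primers, yet each is counted in the counts, medians and places below. With SA, 3 of the 14 were at least 2-fold higher at both times, namely BdbZIP5, BdbZIP24 and BdbZIP81, where 13.5% of all genes were, and the median change of the list was 0.23 beside 0.04 for all genes. By the mean of both times, BdbZIP81 was the highest, with changes of 2.21 at 1 h and 2.80 at 6 h, and BdbZIP34 the lowest, with -1.28 and -2.09. The list thus held genes past 2-fold in both directions with SA. Under Mn, 5 of the 14 were at least 2-fold lower at both times and under Pb 7 were, BdbZIP5 among them in both, beside 40.6% and 44.8% of all genes. The list medians there were -0.90 and -1.92, beside -1.28 and -1.76 for all genes. Averaged over its samples, BdbZIP5 was place 3 of 14 under cold, H2O2, PEG, SA and 6-BA and place 13 under Mn and Pb, the contrasts on which it was chosen. Under treatments not used in the choice it was place 4 under heat and NaCl, 5 under Cu, Zn and Cd, and 4 under ABA and MeJA.

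**Figure D4:**
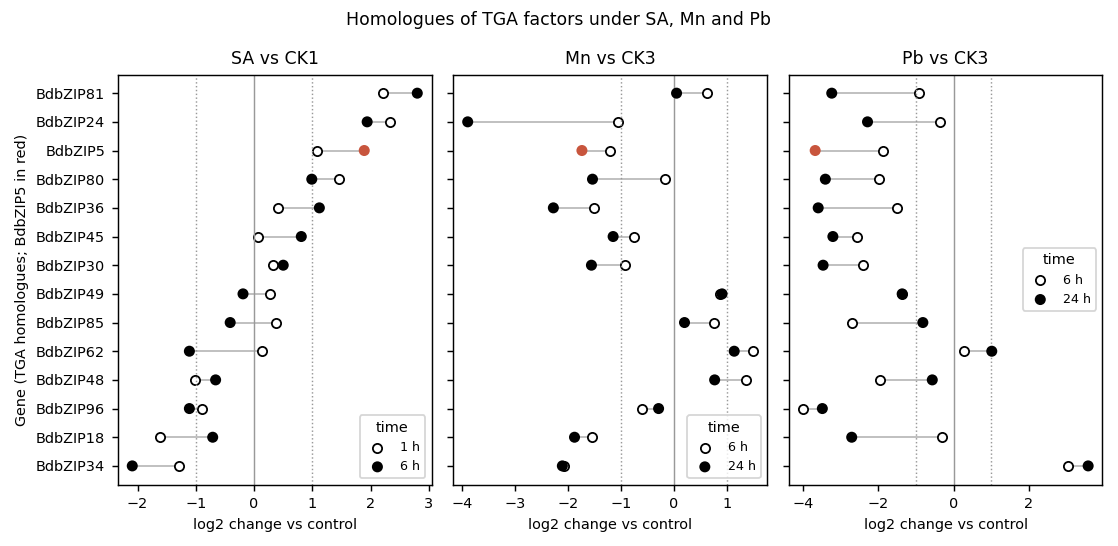
Changes (x axis, log2) of the 14 homologues of TGA factors (y axis) under SA against CK1 and under Mn and Pb against CK3, with open points for the earlier and filled points for the later time, 1 sample each, BdbZIP5 in red and dotted lines at 2-fold. With SA, BdbZIP81, BdbZIP24 and BdbZIP5 have both points past 2-fold higher.

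BdbZIP2 was placed among the 4 genes listed as homologues of RISBZ factors, with BdbZIP13, BdbZIP55 and BdbZIP56. The listed position of BdbZIP56 lies within that of BdbZIP55, so the list may hold fewer than 4 separate genes. It had the highest mean change of the 4 under cold, H2O2, PEG, SA and 6-BA, at 1.87, where the median of the list was 0.55. With H2O2, PEG, SA and 6-BA it was the only one of the 4 at least 2-fold higher at every time used. BdbZIP2 was chosen for high values in these samples, so its place in the list there is a description of the choice. In heat, which was not used in the choice, BdbZIP56 passed, with 1.05 and 1.52, and BdbZIP2 did not. With MeJA BdbZIP2 was the only one to pass, and the lowest of the 4 by the mean of both times was BdbZIP13, with 0.26 and 0.48. With NaCl at 6 h the others were at -3.56, -3.61 and -5.14, against -0.24 for BdbZIP2. With Cu at 24 h all 4 were at least 2-fold lower, from -2.04 to -1.22, as were 72.9% of all genes.

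The rule that chose the genes has no fixed threshold. Ordered by the mean change under cold, H2O2, PEG, SA and 6-BA minus the mean change under Mn and Pb, BdbZIP5 was 9th of 96 at 3.51, between BdbZIP71 at 3.67 and BdbZIP67 at 3.34. BdbZIP2 was 14th at 2.92 and BdbZIP11 was 15th at 2.86, between BdbZIP80 at 2.94 and BdbZIP36 at 2.80. The median of the 96 genes was 1.32. A change above 0 in all 9 samples and below 0 in all 4 was found for 13 genes, BdbZIP5 and BdbZIP11 among them.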

How the data were processed

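Transcripts of 96 genes and BdGAPD were measured by SYBR Green qPCR. The authors deposited Ct values, a score of 1 number per well and sample, and a normalized table, a ratio to the reference gene. The qPCR was repeated, and how repeats were combined is not given in the sources used here. The third table, in which the authors deposited fold changes as a ratio, served only to join wells to genes: all 28 values of each gene equalled those of 1 well and at most 1 of any other well. No value of it is printed.

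Levels were -ΔCT and changes -ΔΔCT against the control in the labels, with BdGAPD as reference, as in the methods of the study. Changes of 2-fold were counted without a test, since a condition had 1 sample. Later and earlier levels were compared by an exact two-sided sign-flip permutation test with Benjamini-Hochberg adjustment over 96 genes. The genes and lists were chosen with earlier results of these data known. Named genes were the 3 genes, BdGAPD, the 3 most like each gene by Pearson r of the level minus the sample median, the neighbours in the order of the rule, and the highest and lowest gene of a list in a condition. Genes of same-primer pairs, genes whose Ct rows matched organ values, and other counted list genes were named besides, after their values were seen. Homologue lists followed the supplement of the study. A Ct holds no count of molecules, so depth is unknown. Alternatives changed the control, the reference, the source, the times and the threshold. The code was tested on simulated Ct values. Sequences and promoter motifs were not analysed here. Python 3.11.15, numpy 2.4.6, pandas 2.3.3 and matplotlib 3.10.9 were used.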

Additional observations from a re-analysis of the deposited data

Results flagged for a closer look

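The change of BdbZIP2 passed 2-fold in opposite directions at the 2 times of Cu, 1.12 at 6 h and -1.23 at 24 h, a difference of -2.35. The median difference over the 96 genes between the same samples was -1.84. The Ct of BdbZIP2 itself was 22.95 at 6 h and 22.76 at 24 h, while that of BdGAPD was 20.86 and 18.32. The change of BdbZIP5 did so with NaCl, 1.35 at 1 h and -1.88 at 6 h, a difference of -3.23, where the assigned control turned from CK1 to CK3 and the level itself was 0.17 higher at 6 h. Neither difference was tested, since each time had 1 sample.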

How the results depend on the processing

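Over 49 alternatives of the medians and of the later minus earlier levels, 14 changed the sign and 11 moved the value by the well error SD of 0.97 or more. Of 17 alternatives of the counts, 7 gave another count. Against the 3 controls averaged, the median change under cold, H2O2, PEG, SA and 6-BA became -0.067, that under Mn and Pb 0.47, that under Cu, Zn and Cd 1.29 and that in organs -0.87, and 1 treatment (Cd) had all 3 genes at least 2-fold higher, in place of 0. With the median of the 96 genes as reference, Mn and Pb gave -0.15, and 3 treatments (cold, PEG and SA) had all 3 genes higher. Without a reference, Mn and Pb gave -0.58, ABA and MeJA -1.66, and 3 treatments (cold, H2O2 and PEG) had all 3 higher. With the normalized table, cold, H2O2, PEG, SA and 6-BA gave -1.73, heat and NaCl -1.15, ABA and MeJA 1.66, and 3 treatments had all 3 genes lower, in place of 0. In the 16 samples assigned CK1 or CK2, 92.3% to 97.1% of comparable genes of that table followed the treated Ct minus the control Ct, with no reference and the opposite sign (within 0.1). By the earlier time alone, Cu, Zn and Cd gave 0.29 and 1 treatment (Pb) had all 3 lower. By the later time alone, 3 had all 3 higher and 2 (Cu and Mn) all 3 lower. Over all 13 treatments with both times, the later minus earlier level of BdbZIP2 was -0.24. The sign also changed, by less than that SD, under the averaged controls for heat and NaCl (-0.042) and ABA and MeJA (-0.16), and for Cu, Zn and Cd with the family median as reference (0.035) and without a reference (0.19). The causes were not tested where no construction is given.

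Without H2O2 at 6 h, an alternative chosen after seeing the data, the median change under cold, H2O2, PEG, SA and 6-BA was 1.35. Of comparable genes in the normalized data, 95.8% followed the shared Ct column for H2O2 at 6 h and 6.98% for PEG at 1 h. With the mean of the other organs as control, also chosen later, the organ median was -0.28. No paired analysis was possible of treated against control samples because each condition had 1 sample, while later and earlier levels were compared in pairs by treatment. With 1 sample a condition and no depth, plant-to-plant variation is unknown. Relative to the family median, 53 of 81 treated levels lay outside the range of the controls, against 13 relative to BdGAPD. Over all genes, 28.4% lay above and 19.6% below the controls relative to the family median. Relative to BdGAPD these shares were 14.7% and 22%. The 81 levels include the samples on which the genes were chosen.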
